A study of Mus musculus with 50 samples.

Results

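Mammary gland (MG) tumors of mice chronically injected with insulin-like growth factor 1 (IGF1) were compared with those of vehicle-injected mice. The 10 IGF1 tumors were taken from the table columns that begin with IGF1, including 1 column titled IFG1_132 (here IGF1_132), and the 10 vehicle tumors from the columns titled Untreated, which makes 20 of the 50 tumors of the series. The titles do not mention vehicle, but the design text of the series names 5 exposures (insulin, glargine, X10, IGF1 and vehicle), so the untreated titles were read as the vehicle group. All mice, vehicle included, were females of the p53R270H/+WAPCre genotype. In this model the promoter of the milk protein gene Wap drives Cre in mammary epithelium, which switches on 1 mutant p53 allele next to a wild-type allele, so every tumor started from cells that carried mutant p53. Injections were subcutaneous, began at 8 weeks of age and were repeated every other day until a tumor had formed. The endpoint was a tumor of 1 cm3, with an interval of 24 h between the final dose and collection. The authors chose 10 tumors per group that looked EMT-like (epithelial to mesenchymal transition) and whose latency lay closest to the group's median, so the groups do not sample all tumors that arose. The paper reports a shorter latency with IGF1 than with vehicle. Age at collection and duration of injection thus also differed by group and cannot be told apart from treatment. Each tumor is named here by its title, such as IGF1_124 or Untreated_161, in which the number is that of the mouse and Untreated stands for vehicle. The mouse numbers and the library numbers (31 to 40 with IGF1, 41 to 50 with vehicle) run in blocks by treatment, so that handling order and treatment cannot be told apart. Tumors came from separate mice, and the spread between tumors is the error in every test below. In the main fit this spread is pooled over all 50 tumors.

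IGF1 binds the IGF1 receptor (IGF1R), a tyrosine kinase at the cell surface. The activated receptor recruits the insulin receptor substrates and signals through PI3K and AKT to mTOR, and through RAS to ERK, which promotes growth and survival and restrains the FOXO transcription factors. Binding proteins (IGFBPs) hold most IGF in the extracellular fluid, and proteases and stanniocalcins set how much of it is released. In the mammary gland, stromal IGF1 takes part in the outgrowth of the ducts. The tumors were collected a day after the last injection, and the table measures steady-state RNA of whole tumors.

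Expression was given as RPKM, reads per kilobase of gene length scaled to library size. Gene lengths recovered from the values were 532 bases for Igf2r and 4489 for Igf1r. Of 15996 recovered lengths, 2546 equaled the exon length in GENCODE M21. Levels are therefore compared between tumors for the same gene, and only with caution between genes. Library sizes recovered from the table were between 37.39 and 51.88 M reads in the IGF1 tumors (median 42.51) and between 37.38 and 51.27 M reads in the vehicle tumors (median 43.96). Over the tested genes, pairs of IGF1 tumors had Pearson correlations of log2(RPKM + 0.5) between 0.896 and 0.973 (median 0.935), and pairs of vehicle tumors between 0.835 and 0.963 (median 0.911). Differences are IGF1 minus vehicle on log2(RPKM + 0.5), a scale that understates the change of low genes, with the standard error (SE) from limma. Of 16733 genes tested, 1 differed at an adjusted p-value under 0.05 (0.00598%), and 1479 (8.84%) had an unadjusted p-value under 0.05, 752 higher (4.49%) and 727 lower (4.34%) in the IGF1 tumors. Median-ratio scaling turned this split to 628 higher and 852 lower, and quantile normalization gave 835 higher and 638 lower. The median difference over all tested genes was 0.0154 on the log2 scale, 8935 genes (53.4%) had a higher value in the IGF1 group, and the median SE was 0.183. The plot of difference against p-value shows how few genes stood apart.

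**Figure D1:**
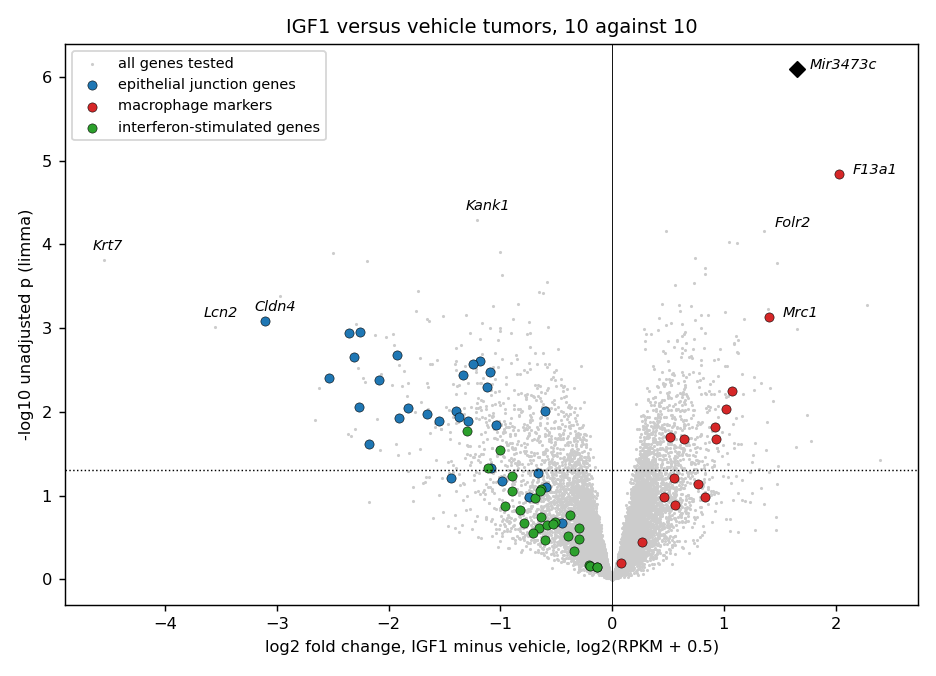
Difference between IGF1 and vehicle tumors (x axis, log2(RPKM + 0.5)) against the unadjusted p-value (y axis, −log10 scale) for each gene tested, with 10 tumors per group, members of 3 lists in color and a dotted line at an unadjusted p-value of 0.05. Mir3473c, at a difference of 1.65, is the only gene of 16733 with an adjusted p-value under 0.05.

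The gene that differed was Mir3473c (ENSMUSG00000093003), a microRNA gene on chromosome 1, which rose in the IGF1 tumors. Its entry is a hairpin of 81 bases on the minus strand at chr1:191998554-191998634 (GRCm38), and it lies inside Traf5, a gene for an adaptor of the TNF receptor family that is read from the same strand (chr1:191997205-192092559). The hairpin lies in an intron of the full-length coding transcripts of Traf5, while 65 of its 81 bases are also in exon 1 of Traf5-204, a transcript annotated with a retained intron (exon at chr1:191997205-191998618). The sequences annotated for this entry are shown because it was the one call. They are from RefSeq (GRCm38.p6, minus strand, 5′ to 3′). In the mature microRNA (chr1:191998602-191998623) capitals mark the seed, bases 2 to 8, and in the hairpin they mark the mature part, bases 12 to 33.
miR-3473c mature: uCUCUCCAgcccccauaauaag
Mir3473c hairpin: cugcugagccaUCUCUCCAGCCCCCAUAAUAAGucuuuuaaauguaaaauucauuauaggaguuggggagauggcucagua
Of 1738 mature mouse microRNAs in RefSeq, 2 carry this seed, miR-3473c itself and miR-7649-3p.

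The RPKM of Mir3473c was 0 at the lowest, 0 at the median and 1.24 at the highest in the vehicle tumors, and 0.617, 1.6 and 4.57 in the IGF1 tumors. No IGF1 tumor was at 0, whereas 6 vehicle tumors were, and 7 of 10 IGF1 tumors exceeded every vehicle tumor. In reads, the IGF1 tumors held between 2 and 15 (59 in all) and the vehicle tumors between 0 and 4 (8 in all), where a count of 0 in a tumor allows up to 3 reads and this allowance covers counting error only. The mean was 1.75 ± 1.11 RPKM (SD, n = 10) with IGF1 and 0.222 ± 0.394 (SD, n = 10) with vehicle. The difference was 1.65 on the log2 scale (SE 0.29, adjusted p = 0.0136, limma). The call was lost without IGF1_132, the highest IGF1 tumor (adjusted p = 0.0668 in limma), and without 3 vehicle tumors of high epithelial content (0.105). It was also lost with array weights (0.265), with the compared groups alone (0.0565), with macrophage and T cell levels as covariates (0.123) and with the epithelial level as a covariate (0.097). The difference in these 6 settings was between 1.51 and 1.65. Reads at this locus came from Poly-A selected libraries, whose mean read length in the paper exceeds the 81 bases of the hairpin. The mature microRNA has 22 bases, so the values cannot be read as its level. Whether the reads stem from a microRNA precursor or from the Traf5 transcript was not tested.

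Traf5 was looked at after its neighbor's value was seen. Its RPKM was 2.87 at the lowest, 7.33 at the median and 19.9 at the highest in vehicle tumors, against 7.53, 11 and 20.5 in IGF1 tumors. The ranges overlapped through IGF1_145, the lowest IGF1 tumor, and through Untreated_189 and Untreated_197, the highest vehicle tumors. The difference of 0.65 (SE 0.22, unadjusted p = 0.00507) did not pass (adjusted p = 0.361, limma). The related genes Mir3473, Mir3473b and Mir3473d were under the level needed for testing, at means of 0.0487, 0.00728 and 0.0543 RPKM over the 50 tumors.

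The ligands and receptors of the IGF system had lower values in the IGF1 tumors in 5 of 5 tested genes. Of these, 1 had an unadjusted p-value under 0.05 (20.0%, against 4.34% of all genes in that direction) and none passed after adjustment. Their median difference was -0.449. For Igf2 and Insr the sign was not stable, since Igf2 was at 0.538 with array weights and at up to 0.279 with a tumor left out, and Insr at 0.000592 without IGF1_160. Igf1, the endogenous ligand, was between 6.58 and 69.8 RPKM in vehicle tumors (median 51.4) and between 11.2 and 48 in IGF1 tumors (median 27.3), a difference of -0.45 (SE 0.36, adjusted p = 0.803, limma). Igf2, the fetal ligand, varied most. Its RPKM was 0.668, 8.45 and 4311 (lowest, median and highest) in vehicle tumors and 0.355, 12.9 and 1685 in IGF1 tumors, so that single tumors in both groups expressed it several orders of magnitude above others (difference -0.54, SE 1.56).

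Igf1r itself had similar levels in both groups. Its RPKM was 3.25, 5.66 and 14.4 in vehicle tumors and 3.74, 5.04 and 7.54 in IGF1 tumors, and the difference of -0.20 (SE 0.20) did not pass (adjusted p = 0.870, limma). The vehicle range enclosed that of IGF1. Insr, the insulin receptor, had a range of 4.32 to 12.5 RPKM in vehicle tumors and 4.03 to 10.5 in IGF1 tumors, with a difference of -0.09 (SE 0.16). Igf2r, which clears IGF2 from the cell surface and carries lysosomal enzymes, had the highest RPKM of the receptors. Its RPKM was 137, 287 and 505 with vehicle and 89.5, 189.2 and 359 with IGF1, a difference of -0.58 (SE 0.21, unadjusted p = 0.00893, adjusted p = 0.394, limma). The groups overlapped, with 1 IGF1 tumor below all vehicle tumors.

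**Figure D2:**
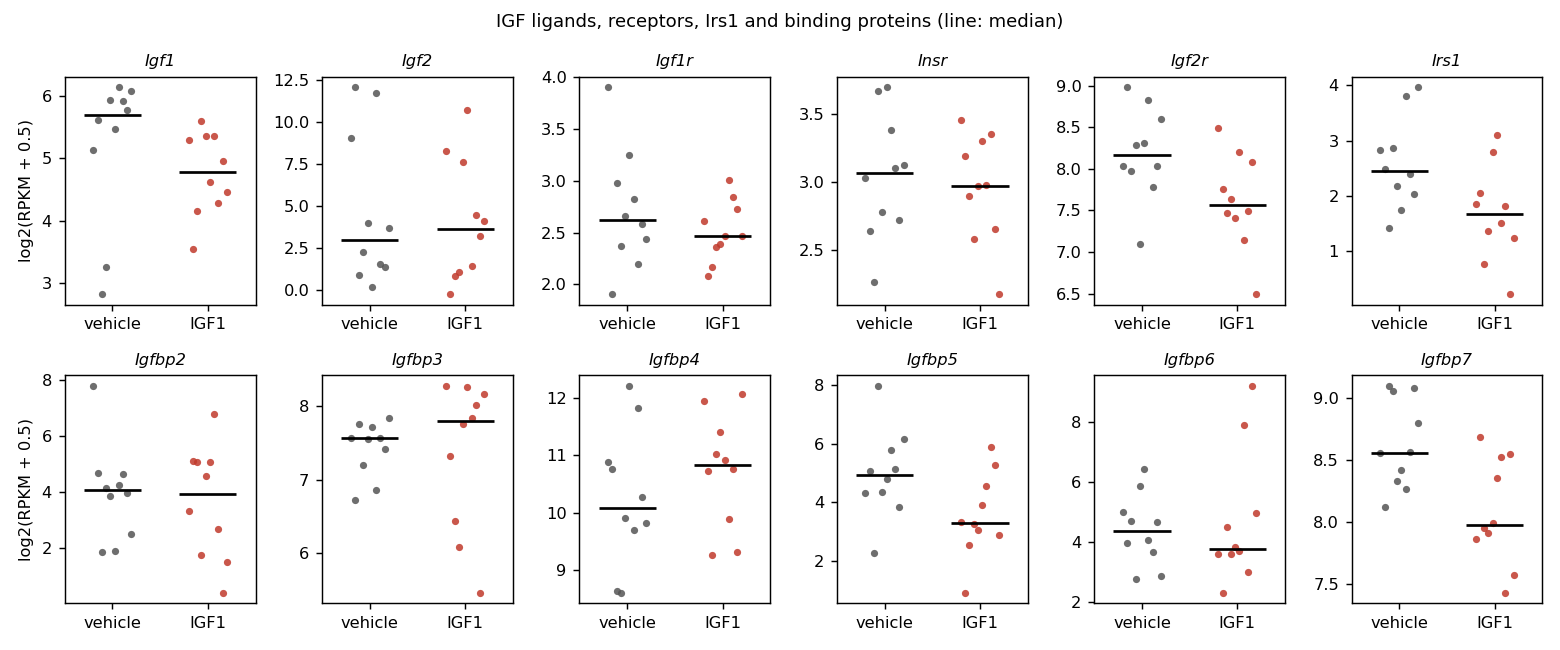
Levels of IGF ligands, receptors, Irs1 and binding proteins (y axis, log2(RPKM + 0.5), own scale in each panel), with a point for each of the 10 vehicle and 10 IGF1 tumors and a line at the group median. Igf2 spans several orders of magnitude in both groups, and the IGF1 tumors lie within the vehicle range for Igf1r.

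Of 10 tested genes for IGF binding proteins and their regulators, 4 had a higher and 6 a lower value in IGF1 tumors (median difference -0.09). Of the lower genes, 2 had an unadjusted p-value under 0.05 (20.0% of the list, against 4.34% of all genes in that direction). Igfbp5, which marks the involuting mammary gland, was 4.3, 29.8 and 250 RPKM in vehicle tumors and 1.39, 9.31 and 59 in IGF1 tumors (difference -1.40, SE 0.69, unadjusted p = 0.0474, adjusted p = 0.558, limma). Igfbp7, which binds IGFs weakly and is made by vessels, was 279, 378 and 548 RPKM with vehicle and 172, 251 and 412 with IGF1 (difference -0.54, SE 0.24, unadjusted p = 0.0266, adjusted p = 0.493, limma). For Igfbp7, 6 IGF1 tumors were below every vehicle tumor, and for Igfbp5 1 was.

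Igfbp4, the binding protein gene of highest RPKM, had medians of 1095 RPKM in vehicle and 1823 in IGF1 tumors with wide overlap (difference 0.46, SE 0.39). Igfbp3, the main carrier in serum, had a wider range in IGF1 than in vehicle tumors, from 43.6 to 310 RPKM against 105.2 to 229, with 4 IGF1 tumors above and 3 below every vehicle tumor. Its mean difference was near 0 (-0.06, SE 0.32). Igfbp2 (-0.33), Igfbp6 (0.26), the IGFBP proteases Pappa (-0.44) and Pappa2 (-0.12), and their inhibitors Stc1 (0.61) and Stc2 (0.42) had unadjusted p-values between 0.101 and 0.758. Pappa reached the tested level only through the vehicle tumors (mean of 0.458 RPKM over the other 4 groups), and without it 5 of 9 genes of the list had lower values.

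Irs1, the adaptor that links IGF1R to PI3K, was the gene nearest the threshold among 18 tested adaptors and their inhibitors. Its RPKM was 2.17, 4.92 and 15.1 in vehicle tumors and 0.656, 2.68 and 8.1 in IGF1 tumors. Of the IGF1 tumors, 4 were below every vehicle tumor, and the difference was -0.90 (SE 0.28, unadjusted p = 0.00262, adjusted p = 0.334, limma). The 18 adaptors together had a median difference of -0.07.

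Genes further down the pathway differed little. Among 30 PI3K, AKT and mTOR genes, 3 had an unadjusted p-value under 0.05, all higher in IGF1 tumors (10.0% of the list, against 8.84% of all genes in either direction and 4.49% in that direction). These included Tsc2, which restrains mTOR (0.27, SE 0.11), and Inpp5d, a lipid phosphatase of blood cells (0.46, SE 0.21). Of 15 FOXO factors and FOXO-repressed genes, 1 was below that threshold, Cited2 (-0.51, SE 0.22), a transcriptional co-regulator. The 16 RAS, RAF and ERK kinase genes had a median difference of 0.037. The ERK feedback genes held 1 of 18, the AP-1 subunit gene Fosl1 (0.64, SE 0.30). No gene in these 4 lists passed after adjustment, and their median differences were between 0.037 and 0.084.

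Of 23 immediate early genes, which respond within an hour of a growth factor, 18 had lower values in IGF1 tumors, 3 of them at an unadjusted p-value under 0.05 (13.0%, against 4.34% of all genes in that direction, median difference -0.162). Ctgf, a secreted target of YAP and TGF-beta, was 34.3, 52.5 and 195.1 RPKM with vehicle and 11.6, 27.1 and 140 with IGF1, and 7 IGF1 tumors were below every vehicle tumor (difference -0.99, SE 0.39, adjusted p = 0.426, limma). Egr1 differed by -0.44 (SE 0.20). Of 15 Id and BMP feedback genes, 11 had lower values and 4 were at that threshold, all lower (26.7%, against 4.34% of all genes in that direction, median difference -0.354), among them Id3, an inhibitor of differentiation factors (93, 157.6 and 351 RPKM against 48, 94.8 and 241, difference -0.78, SE 0.27), and the BMP inhibitor Smad6 (-0.82, SE 0.30).

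Macrophage markers had uniformly higher values in IGF1 tumors. All 15 tested markers were higher, 8 of 15 at an unadjusted p-value under 0.05 (53.3%, against 4.49% of all genes in that direction), and the median difference was 0.771. None of the 15 passed after adjustment. Their summed RPKM was 791.9, 1856 and 4701 (lowest, median and highest) in vehicle tumors and 1998, 3281 and 6354 in IGF1 tumors. The groups overlapped, but 4 IGF1 tumors had a mean marker level above every vehicle tumor and 3 vehicle tumors were below every IGF1 tumor. In bulk RNA, more cells of a type and more RNA per cell cannot be told apart.

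F13a1, the coagulation factor XIII subunit made by resident macrophages, was 2.87, 9.57 and 42 RPKM in vehicle tumors and 11.4, 39 and 137 in IGF1 tumors (difference 2.03, SE 0.42, adjusted p = 0.120, limma). Folr2, a folate receptor of tissue macrophages that is not on the list, was 4.93, 12.4 and 41.9 RPKM against 18.7, 37.9 and 59.2 (difference 1.35, SE 0.31, adjusted p = 0.213, limma). The mannose receptor Mrc1 was 4.6, 34.8 and 77.3 RPKM against 15.2, 96 and 193 (difference 1.40, SE 0.39, adjusted p = 0.277, limma). For Mrc1, 7 of 10 IGF1 tumors exceeded all vehicle tumors, for Folr2 5 and for F13a1 4. The complement genes C1qa, C1qb and C1qc, which macrophages secrete, differed by 0.92, 1.08 and 1.02, and C1qb had group means of 290.3 and 518.5 RPKM. Lyz2, the myeloid lysozyme, differed by 0.65, and the general markers Csf1r (0.46) and Cd68 (0.26) were not at an unadjusted p-value under 0.05.

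The count of macrophage markers at that threshold differed between settings. It was 4 of 15 without Untreated_161, which had the lowest marker level (15 higher, median difference 0.556), and 13 of 15 without IGF1_160, the lowest IGF1 tumor (0.889). It was 4 of 15 with the epithelial level as a covariate (14 higher, median 0.532), and 8 of 15 without 3 vehicle tumors of high epithelial content (0.728). With the compared groups alone it was 8 of 15, and the lowest adjusted p-value of the list in limma was 0.672, where the main fit gave 0.12. Untreated_161 was also the lowest vehicle tumor in the mean levels, in log2 units, of fibroblast (-2.54), endothelial (-0.63), pericyte (-1.68), T and NK cell (-1.82), B and plasma cell (-1.58), dendritic cell and MHC class II (-2.69), mast cell (-1.43) and adipocyte genes (-1.71), beside -2.06 for macrophage markers. F13a1 passed the adjusted threshold without IGF1_160 (adjusted p = 0.0219, limma) or Untreated_195 (0.0226), and Folr2 did without Untreated_195 (0.0433).

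**Figure D3:**
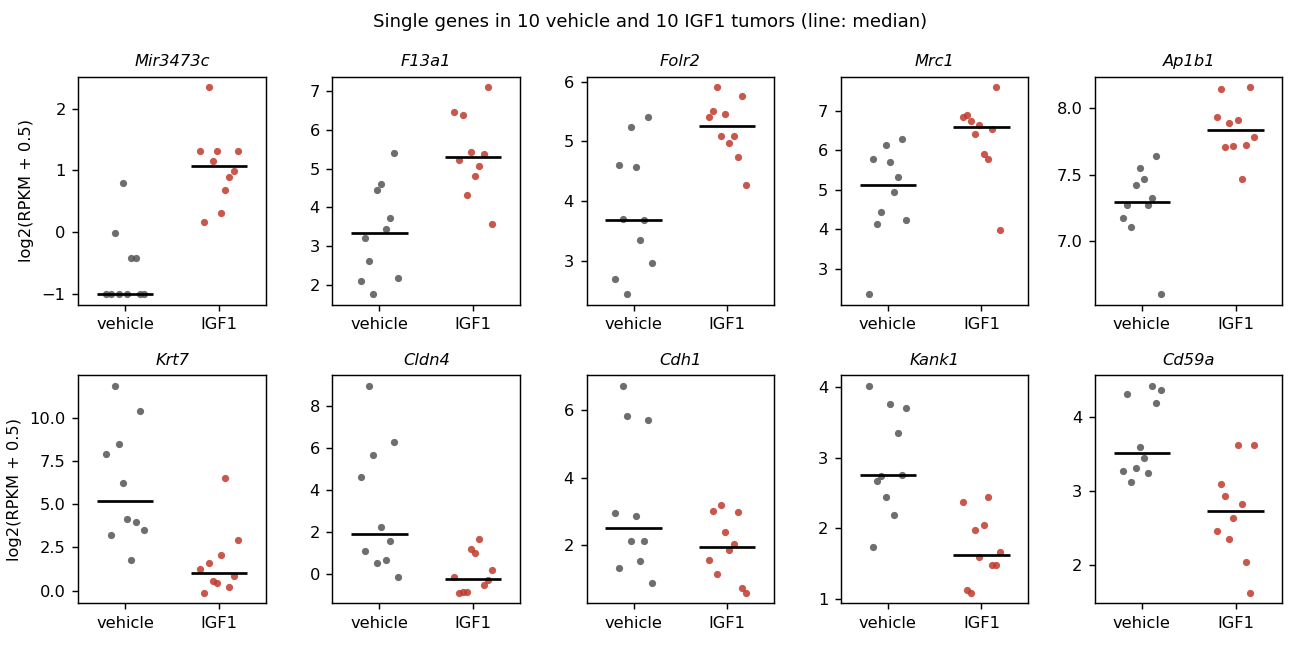
Levels of Mir3473c and of 9 further genes (y axis, log2(RPKM + 0.5), own scale in each panel), with a point for each of the 10 vehicle and 10 IGF1 tumors and a line at the group median. For Ap1b1, 9 of 10 IGF1 tumors lie above every vehicle tumor, and for Krt7 7 of 10 lie below.

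Other blood and stromal cell markers were more mixed. Of 7 mast cell markers, 5 were higher, 3 of them at an unadjusted p-value under 0.05 (42.9%, against 4.49% of all genes in that direction), and the median difference was 1.232. They included the mast cell proteases Cpa3 (0.386, 1.48 and 14.5 RPKM with vehicle, and 0.944, 4.77 and 29.2 with IGF1, difference 1.28, SE 0.55) and Cma1 (difference 1.25, SE 0.59). Of 10 neutrophil markers, 9 had lower values (median difference -0.809). The chemokine receptor gene Cxcr2 (-1.15, SE 0.52) was the 1 with an unadjusted p-value under 0.05 (10.0%, against 4.34% of all genes in that direction). The 11 dendritic cell and MHC class II genes (median difference 0.382), 20 T and NK cell genes (0.03) and 10 B and plasma cell genes (-0.334) held none at that threshold. Fibroblast (0.087), endothelial (0.145) and pericyte markers (0.193) had small median differences. They held 2 of 15, 1 of 16 and 1 of 10 genes at an unadjusted p-value under 0.05 (13.3%, 6.2% and 10.0%, against 8.84% of all genes in either direction). The fibroblast genes were Dcn, the matrix proteoglycan decorin (1.09, SE 0.48), and Pdgfrb (-0.61, SE 0.22). Of 13 adipocyte markers 12 had lower values (median -0.575), and Cidea (-0.89), the one gene at that threshold, reached the tested level only through the vehicle tumors, with a mean of 0.426 RPKM over the other 4 groups. Without Cidea 0 of 12 adipocyte markers were at it, and 15 skeletal muscle (-0.053) and 6 red blood cell genes (-0.148) held none. Of 8 Schwann cell and nerve genes 4 were at it (50.0%, against 8.84% of all genes in either direction). They included the myelin genes Pmp22 with a higher value (0.57) and Mbp (-0.67) and Ncmap (-1.22) with lower values.

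Epithelial genes had lower values in the IGF1 tumors. Of 30 tested genes of epithelial junctions, splicing and polarity, 30 were lower, and 24 of 30 had an unadjusted p-value under 0.05 (80.0%, against 4.34% of all genes in that direction), with a median difference of -1.384. Of these, Pard6b reached the tested level only through the vehicle tumors (mean of 0.482 RPKM over the other 4 groups), and without it the count was 23 of 29. None passed after adjustment, where the lowest adjusted p-value in limma was 0.277. The mean level of these genes, in log2 units relative to all 50 tumors, was -1.09, 0.21 and 4.23 in vehicle tumors and -1.28, -0.95 and 0.02 in IGF1 tumors. Vehicle tumors spread widely, whereas the IGF1 tumors stayed within a narrow low range. Untreated_174 (4.23), Untreated_182 (2.91) and Untreated_195 (2.36) were far above the rest, while Untreated_162, Untreated_186, Untreated_189 and Untreated_197 were between -1.09 and -0.74, within the IGF1 range.

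Krt7, a keratin of simple epithelia from the luminal marker list, had the largest difference of the genes named here. Its RPKM was 2.93, 46.1 and 3810 in vehicle tumors and 0.42, 1.58 and 90.9 in IGF1 tumors (difference -4.55, SE 1.11, adjusted p = 0.213, limma). Cldn4 of the junction list, a tight junction claudin, was 0.42, 3.38 and 502 RPKM against 0.044, 0.362 and 2.73 (difference -3.10, SE 0.87, adjusted p = 0.277, limma). Esrp2 of the same list, which directs epithelial splicing, was 0.713, 3.32 and 90.8 RPKM against 0.333, 0.658 and 4.99 (difference -2.25, SE 0.65, adjusted p = 0.277, limma). In these 3 genes 7, 6 and 5 IGF1 tumors were below every vehicle tumor. Outside the list, Cxadr, a tight junction receptor (-2.19, SE 0.53), Lad1, a basement membrane anchor protein (-2.97, SE 0.78), and Lcn2, the iron carrier lipocalin 2 (-3.55, SE 1.01), had adjusted p-values between 0.213 and 0.277 in limma.

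Among other members of the junction list, Epcam (-2.27), Cldn7 (-2.53), Spint2 (-2.35) and the desmosome gene Dsp (-2.08) were at the larger end, and F11r (-0.44) at the smaller. Cdh1, the E-cadherin of adherens junctions, was 1.33, 5.3 and 106 RPKM in vehicle tumors and 0.993, 3.33 and 8.59 in IGF1 tumors (difference -1.26, SE 0.60, unadjusted p = 0.0401, adjusted p = 0.537, limma). It belongs to 6 epithelial genes the study chose on these same samples, whose direction is therefore no independent evidence. All 6 had lower values, and 3 were at an unadjusted p-value under 0.05 (50.0%, against 4.34% of all genes in that direction). These were Cdh1, the transcription factor gene Elf3 (-1.83, SE 0.64) and the serpin gene Serpinb5 (-1.77, SE 0.66). Grhl2 (-0.97), Elf5 (-0.88) and Wnt4 (-0.49) were not.

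The count was lower without 3 vehicle tumors, Untreated_174, Untreated_182 and Untreated_195. They were left out because they were highest in the level compared, so that a smaller difference follows from the choice. Without them 0 of the 30 genes had an unadjusted p-value under 0.05, 27 of 30 had lower values and the median difference was -0.408. With macrophage and T cell levels as covariates 11 of 30 were at that threshold, 30 of 30 had lower values and the median difference was -1.144. Leaving out single tumors gave between 19 and 29. The compared groups alone gave 23 of 30, and the lowest adjusted p-value of the list in limma was 0.672, where the main fit gave 0.277.

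Markers of both mammary epithelial layers had mostly lower values too. Of 14 luminal markers 13 were lower, 4 at an unadjusted p-value under 0.05 (28.6%, against 4.34% of all genes in that direction, median difference -0.917), and of 16 basal markers 13 were lower, 4 at that threshold (25.0%, median -0.818). Krt19 of the luminal layer was 1.36, 16 and 826 RPKM against 0.182, 2.94 and 71.2 (difference -2.63, SE 0.90). Krt14 of the basal layer was 0.787, 58.2 and 2164 RPKM against 0.56, 7.91 and 25.6 (difference -2.65, SE 1.02). In both, the highest values belonged to vehicle tumors and the lower ranges overlapped. The 14 milk protein genes were more mixed, with 5 higher (up to 0.73) and 9 lower (median difference -0.208). At that threshold were 2 of the lower genes (14.3%), Lcn2 and the mucin gene Muc1 (-1.66, SE 0.56).

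Mesenchymal genes did not show the reverse pattern. Of 11 mesenchymal genes named by the study, 6 were higher and 5 lower (median difference 0.044). Vim, the intermediate filament vimentin, was 1094, 3545 and 4769 RPKM in vehicle tumors and 2435, 4056 and 5180 in IGF1 tumors (difference 0.43, SE 0.21, unadjusted p = 0.0437, adjusted p = 0.547, limma). Pdgfrb, given above among fibroblast markers, had the lower value. Of 18 further EMT genes 1 was at an unadjusted p-value under 0.05, the E-cadherin repressor gene Zeb2 (7.56, 30.4 and 43.5 RPKM against 16.7, 43.7 and 55.8, difference 0.46, SE 0.23), where Untreated_174 was lowest and 5 IGF1 tumors were above all vehicle tumors. All 20 tumors expressed Vim at 1094 RPKM or more, and the median of Cdh1 was 5.3 RPKM or less in both groups. The recovered gene lengths were 723 bases for Vim and 3203 for Cdh1, so the sizes of these levels are not compared.

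**Figure D4:**
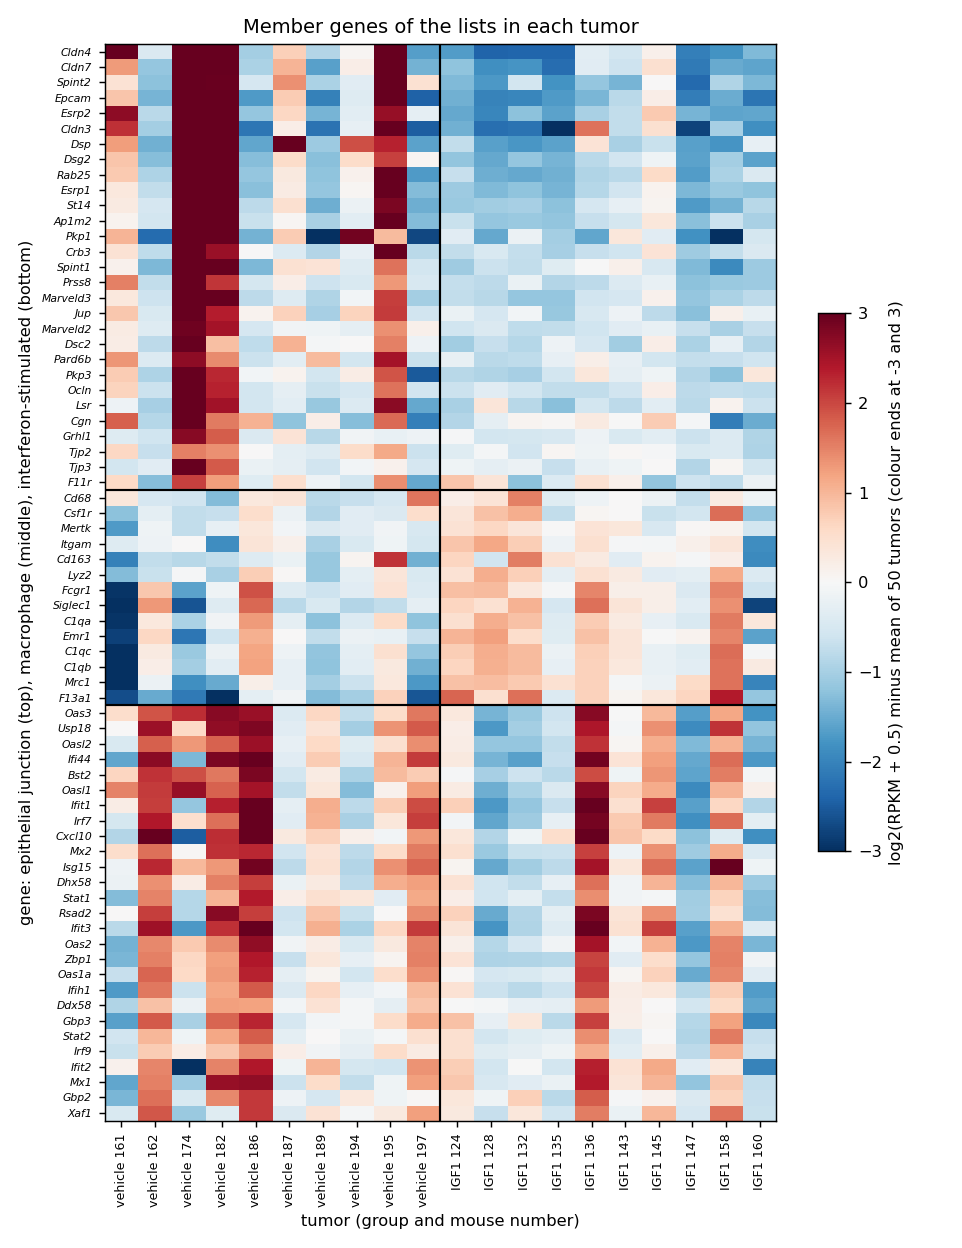
Heat map of epithelial junction genes (top), macrophage markers (middle) and interferon-stimulated genes (bottom) in each of the 20 tumors (columns, vehicle with its mouse number to the left and IGF1 to the right), as log2(RPKM + 0.5) minus the gene's mean over 50 tumors. High epithelial levels are concentrated in Untreated_174, Untreated_182 and Untreated_195, and the lowest macrophage level is in Untreated_161.

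Promoters of the epithelial genes were searched because the ZEB and SNAI repressors bind the E-box CACCTG (read as CAGGTG from the opposite strand). Of 30 tested genes of the list, 19 had an entry among the RefSeq promoters (GRCm38.p6). The 250 bases before the start held the E-box in 12 of 19 genes (63.2%), in 5252 of 27025 genes of the whole table (19.4%) and in 1917 of 10404 tested genes (18.4%). It was present in 1 of 10 macrophage markers and 3 of 20 interferon-stimulated genes. These matches describe the sequence and do not show binding. The share depends on how the list was chosen and uses no expression value of these tumors, so it does not bear on the difference between the groups. Cldn4 and Rab25 are shown as genes of the list with 1 and 2 E-boxes close to the start, which are in capitals. Both are on the minus strand, Cldn4 at chr5:134946935-134947184 and Rab25, a gene for a vesicle GTPase of epithelia, at chr3:88548280-88548529.
Cldn4: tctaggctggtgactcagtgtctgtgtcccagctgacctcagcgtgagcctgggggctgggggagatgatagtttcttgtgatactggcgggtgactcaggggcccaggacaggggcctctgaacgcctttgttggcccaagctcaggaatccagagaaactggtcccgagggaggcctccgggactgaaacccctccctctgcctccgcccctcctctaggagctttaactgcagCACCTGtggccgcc
Rab25: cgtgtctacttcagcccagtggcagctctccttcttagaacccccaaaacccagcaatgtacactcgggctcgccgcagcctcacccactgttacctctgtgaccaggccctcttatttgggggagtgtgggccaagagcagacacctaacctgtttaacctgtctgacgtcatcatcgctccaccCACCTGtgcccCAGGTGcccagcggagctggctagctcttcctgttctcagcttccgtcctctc
In Cldn4 the E-box begins 14 bases before the start, and in Rab25 the E-boxes begin 64 and 53 bases before it.

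Interferon-stimulated genes, which cells switch on after sensing viral or self nucleic acids, had lower values in IGF1 tumors in 27 of 27 tested genes, with a median difference of -0.634. Of these, 3 had an unadjusted p-value under 0.05 (11.1%, against 4.34% of all genes in that direction) and none passed after adjustment. The mean level of the list was -0.54, 0.41 and 2.5 in vehicle tumors and -1.22, -0.17 and 2.22 in IGF1 tumors. The groups overlapped over most of their range, 4 IGF1 tumors were below all vehicle tumors, and IGF1_136 had the highest level of its group. Oas3, a sensor of double-stranded RNA, was 1.82, 8.26 and 24.9 RPKM against 0.605, 2.64 and 25 (difference -1.30, SE 0.53, unadjusted p = 0.0169, adjusted p = 0.436, limma). Oasl2, its relative, differed by -1.005 (SE 0.45), and Usp18, which removes ISG15 from proteins, by -1.12.

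The count differed between settings. It was 11 of 27 without IGF1_136, 7 without Untreated_194 and 5 without Untreated_187, but 1 without any one of IGF1_128, IGF1_132, IGF1_147 and IGF1_160 or Untreated_162, Untreated_182 and Untreated_186. The median difference over the fits that left out single tumors was between -0.852 (without IGF1_136) and -0.392 (without Untreated_186). The count was 15 with macrophage and T cell levels as covariates (median -0.746), 1 with the epithelial level as a covariate (-0.615), 1 without the 3 vehicle tumors of high epithelial level (-0.627) and 0 with array weights (-0.523). The value was lower in 27 of 27 genes in each of the last 4 settings, but in 23 without Untreated_186, 25 without Untreated_162 and 26 without Untreated_182 or IGF1_160.

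Most of these genes are switched on through the interferon-stimulated response element (ISRE), searched here as GAAA followed, after any 2 bases, by a further GAAA (or TTTC and TTTC in the same spacing, its form on the opposite strand). It was in the 250 bases before the start of 11 of 20 interferon-stimulated genes with an entry (55%), against 936 of 27025 genes (3.46%) and 338 of 10404 tested genes (3.25%). Of the epithelial genes 1 of 19 held it and of the macrophage markers 0 of 10. Here too the share follows from the choice of the list and uses no expression value of these tumors. Oas3 (minus strand, chr5:120777660-120777909) and Ifit1 (plus strand, chr19:34640639-34640888) are shown, with the matches in capitals.
Oas3: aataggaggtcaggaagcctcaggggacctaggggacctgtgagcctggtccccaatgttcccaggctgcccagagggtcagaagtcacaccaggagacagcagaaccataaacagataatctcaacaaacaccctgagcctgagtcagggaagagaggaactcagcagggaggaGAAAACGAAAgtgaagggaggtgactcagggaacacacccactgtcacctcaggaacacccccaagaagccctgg
Ifit1: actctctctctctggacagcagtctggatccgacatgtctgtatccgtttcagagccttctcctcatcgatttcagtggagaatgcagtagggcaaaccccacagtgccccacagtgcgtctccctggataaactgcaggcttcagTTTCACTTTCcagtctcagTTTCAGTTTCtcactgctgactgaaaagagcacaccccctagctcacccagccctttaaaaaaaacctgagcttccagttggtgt
The match begins 75 bases before the start of Oas3, and the 2 matches of Ifit1, a gene for a protein that binds foreign RNA ends, begin 104 and 85 bases before it.

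Outside these lists, the protein-coding genes nearest the threshold included Ap1b1 and Ap2a2, with higher values in IGF1 tumors. Ap1b1, a subunit of the AP-1 clathrin adaptor, was 96.7, 157 and 199 RPKM in vehicle tumors and 176, 228 and 285 in IGF1 tumors (difference 0.56, SE 0.14, adjusted p = 0.273, limma). With 9 of 10 IGF1 tumors above every vehicle tumor, it had the clearest separation of the named genes. Ap2a2, a subunit of the endocytic AP-2 adaptor, was 22.7, 29 and 39.9 RPKM against 37.7, 39.3 and 64.4 (difference 0.48, SE 0.11, adjusted p = 0.213, limma). Fcgrt, the receptor that recycles IgG and albumin (0.83, SE 0.21), the phospholipase gene Pla2g12a (1.04, SE 0.24), Rapsn, which clusters acetylcholine receptors (1.12, SE 0.26), and Nxpe5 (1.47, SE 0.36) also had higher values, with adjusted p-values between 0.213 and 0.244 in limma.

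Among genes with lower values, Kank1, a regulator of the actin cytoskeleton at adhesions, was 2.84, 6.25 and 15.7 RPKM in vehicle tumors and 1.63, 2.6 and 4.96 in IGF1 tumors (difference -1.21, SE 0.27, adjusted p = 0.213, limma). Cd59a, which protects cells from complement lysis, was 8.19, 10.9 and 20.9 RPKM against 2.58, 6.15 and 11.8 (difference -1.01, SE 0.24, adjusted p = 0.213, limma), and 8 of 10 IGF1 tumors were below every vehicle tumor. Tnnt2, the cardiac troponin T (-2.50, SE 0.60), the ephrin receptor gene Ephb3 (-0.98, SE 0.25) and Nkd2, an inhibitor of Wnt signaling (-1.74, SE 0.45), followed.

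Growth and proliferation genes had small differences. Of 79 cytosolic ribosomal protein genes 66 had higher values, with a median difference of 0.106. At an unadjusted p-value under 0.05 were 2, both higher (2.5%, against 4.49% of all genes in that direction), Rpl30 (0.26) among them. Of 40 translation initiation and elongation genes 34 were higher (median 0.103). At that threshold were 5, 3 higher and 2 lower (12.5%, against 8.84% of all genes in either direction). Eif3c, a core subunit of the initiation factor eIF3, was 67.3, 72.2 and 91.4 RPKM with vehicle and 73.4, 84.6 and 131 with IGF1 (difference 0.29, SE 0.08, adjusted p = 0.277, limma). Eif3l of the same complex differed by 0.30, while Eif2b5 (-0.37) and Eif4g1 (-0.34) had lower values. The ribosome biogenesis genes had 1 of 25 at that threshold (4.0%), Nop56 (0.33), a core protein of nucleolar RNPs.

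Cell cycle genes stayed near the median of all genes. Of 36 mitosis genes 28 had higher values (median 0.119) and none was at an unadjusted p-value under 0.05, of 36 S phase genes 1 was (Mcm4, a subunit of the replicative helicase, -0.49), and of 16 G1 genes none was. Mcm4 was at 113.5 RPKM in Untreated_197, where a run of 27 genes next to it on chromosome 16 was high too, and at 27.95 or less in the other vehicle tumors. Its difference was -0.255 without Untreated_197 and -0.295 without IGF1_160. Ccnd1, the cyclin D1 of G1, was 114, 204 and 306 RPKM with vehicle and 141, 286 and 375 with IGF1 (difference 0.43, SE 0.22, unadjusted p = 0.0614). Of 63 replication-dependent histone genes 27 reached the tested level in these Poly-A selected libraries. At that threshold were 2 with lower values, Hist1h2ao (-0.74) and Hist1h2ap (-0.68). Their sequences are close to those of other histone copies, so that reads may be shared. Against the insulin, glargine and X10 tumors together they had higher values (0.40 and 0.42, unadjusted p = 0.0408 and 0.0392, limma). Of 26 p53 target genes 1 was at that threshold, Xpc (-0.31) of DNA repair, and of 15 BCL2 family genes 1 was, the death agonist Bid (-0.71).

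Among metabolic lists, Phgdh, the first enzyme of serine synthesis, was 83.5, 133 and 244 RPKM in vehicle tumors and 109, 213 and 413 in IGF1 tumors (difference 0.82, SE 0.25, unadjusted p = 0.00174, adjusted p = 0.303, limma). It was 1 of 3 at an unadjusted p-value under 0.05 among 24 serine, one-carbon and nucleotide synthesis genes, with Impdh2 (0.33) and Gart (-0.29). This share was 12.5%, against 8.84% of all genes in either direction. Scd1, which desaturates fatty acids, was 16.3, 39.1 and 186.7 RPKM against 6.81, 21.3 and 45.6 (difference -1.21, SE 0.41, unadjusted p = 0.0045, adjusted p = 0.361, limma). It was the only 1 of 16 fatty acid synthesis genes at that threshold (6.2%). For both genes the groups overlapped.

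Of 25 glycolytic genes, 16 had higher values (median 0.147), with Pgk1 (0.44, SE 0.21) at an unadjusted p-value under 0.05, and of 21 hypoxia target genes 16 had higher values (median 0.27), with the mitochondrial protein gene Higd1a (0.62) and Angptl4 (0.57), an inhibitor of lipoprotein lipase, at that threshold. Of 37 complex I subunit genes, 3 were at it (8.1%; Ndufa6 at 0.27 and Ndufa4 at -0.45 among them), as were 4 of 38 nuclear genes of complexes II to V (10.5%), among them Atp5g2 (0.31) and Sdhc (-0.29). These shares and that of the glycolytic list (4.0%) were near or below the 8.84% of all genes in either direction. The share of the hypoxia list was 9.5%, all higher, against 4.49% of all genes in that direction. None of the 13 mitochondrially encoded genes, 22 tricarboxylic acid cycle genes or 19 cholesterol genes was at that threshold. Single genes were at it in the pentose phosphate (2 of 12, Rpia -0.62 and G6pdx 0.25), fatty acid oxidation (1 of 16, Acadl -0.39) and ATF4 and unfolded protein (1 of 21, Pdia4 -0.32) lists.

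Matrix and signaling lists with several genes at an unadjusted p-value under 0.05 were mostly lower. Of 20 collagen genes 9 had higher and 11 lower values (median -0.102), and 5 were at that threshold, all lower (25.0%, against 4.34% of all genes in that direction), led by Col8a2 (1.21, 4.23 and 51.2 RPKM against 0.419, 1.44 and 7.03, difference -1.72, SE 0.54) and Col11a1 (-1.83, SE 0.61). Of 18 TGF-beta genes 13 had lower values (median -0.148), and 5 were at that threshold, all lower (27.8%), with Ctgf and the ligand gene Tgfb2 (-0.96, SE 0.37). Erbb2 (7.05, 9.26 and 34.1 RPKM against 3.57, 7.8 and 10.2, difference -0.76, SE 0.25) and Erbb3 (-1.06, SE 0.42), which form a heterodimeric receptor, were the 2 of 11 ERBB genes at that threshold. Both were lower (18.2% of the list, against 4.34% of all genes in that direction). Of 15 Wnt target genes 4 were at that threshold (26.7%, against 8.84% of all genes in either direction). They included Nkd2, Rnf43 (-0.60) and, in the other direction, Dkk2 (1.48, SE 0.72). Of 14 imprinted growth genes 4 were (28.6%, against 8.84% of all genes in either direction). They were Dlk1 (0.91) and Dcn with higher values, and Igf2r and Phlda2 (-1.16) with lower ones. Of 18 genes for matrix metalloproteinases and their inhibitors 1 was (5.6%), the inhibitor gene Timp3 (-0.85). Of 18 circadian clock genes 2 were (11.1%), Tef (0.31) and Bhlhe40 (-0.52). None of these genes passed after adjustment.

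**Figure D5:**
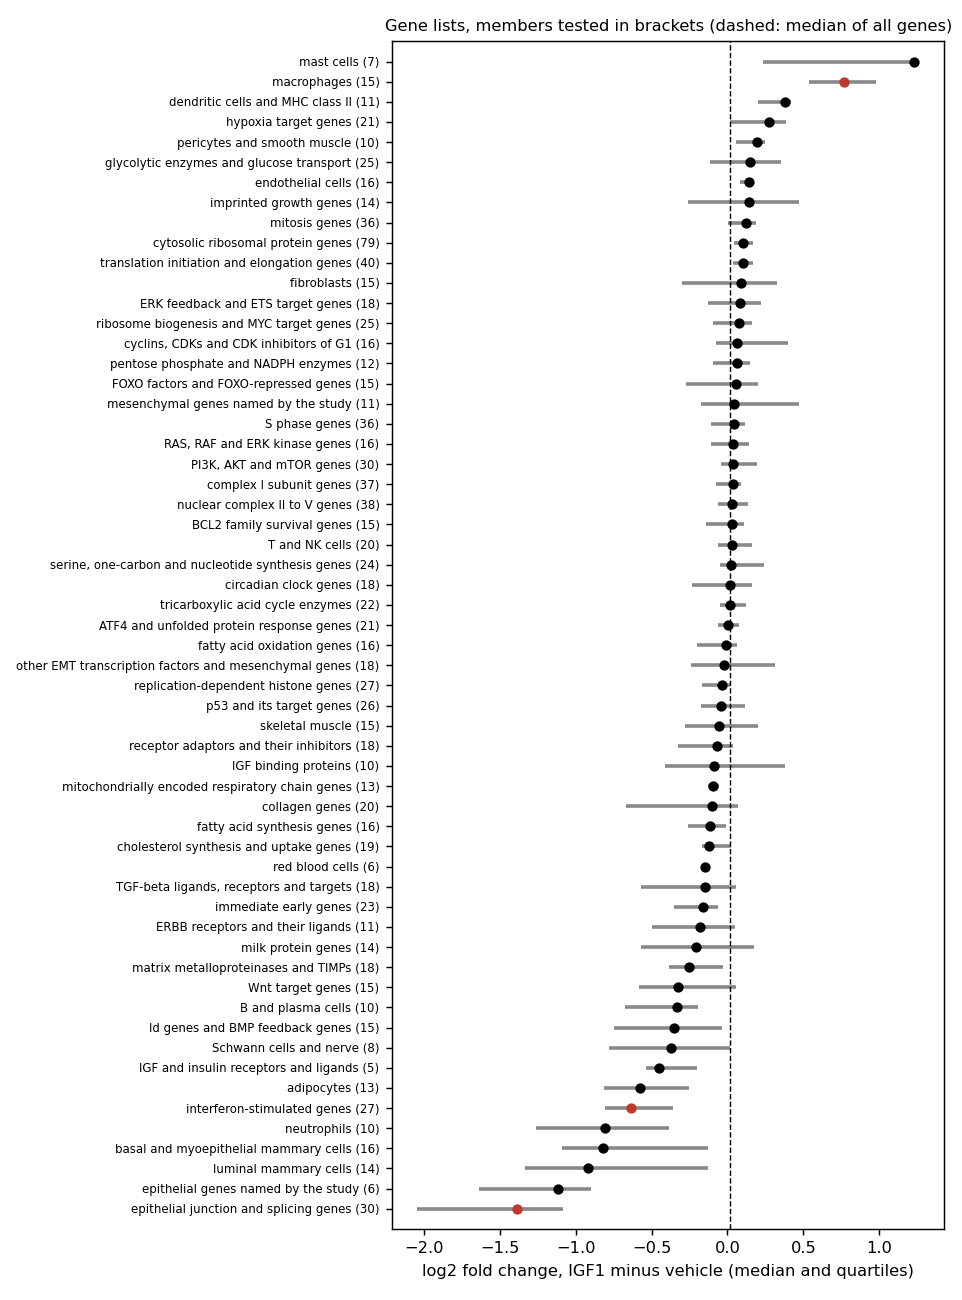
Difference between IGF1 and vehicle tumors (x axis, log2(RPKM + 0.5)) for each of the 58 lists (rows, with the number of tested genes in brackets), as the median over genes (point) with its quartiles (line), and the median of 0.0154 over all tested genes as a dashed line. The 3 lists in red are those of the heat map, and mast cell (1.232) and macrophage (0.771) markers have the highest medians and epithelial junction genes (-1.384) the lowest.

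The IGF1 tumors were also compared with the 30 tumors of mice injected with insulin, glargine or X10, the latter 2 being modified insulins, in a comparison that uses no vehicle tumor but the same IGF1 tumors. Of 16733 genes 0 differed at an adjusted p-value under 0.05 in limma (0%), and 1260 (7.53%) had an unadjusted p-value under 0.05, 828 higher (4.95%) and 432 lower (2.58%) in the IGF1 tumors. Upper quartile scaling turned this split to 494 higher and 675 lower, median-ratio scaling gave 599 and 594, and quantile normalization 902 and 382. limma voom on the recovered reads also called 0 genes, with 1164 at an unadjusted p-value under 0.05. The 2 comparisons share the IGF1 tumors, so their values are set side by side without a test of likeness.

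Against the other ligands, Mir3473c differed by 0.62 (unadjusted p = 0.0126, limma), where the difference from vehicle was 1.65. The macrophage markers had a median difference of 0.158, with 0 of 15 at an unadjusted p-value under 0.05, beside 0.771 and 8 of 15 against vehicle. The epithelial junction genes had a median of -0.79, with 9 of 30 at that threshold, beside -1.384 and 24 of 30. The interferon-stimulated genes had a median of 0.32, with 0 of 27 at that threshold, beside -0.634 and 3 of 27. Cytosolic ribosomal protein genes had 18 of 79 and translation genes 12 of 40 at that threshold, all higher, where 4.95% of all genes were in that direction. Against vehicle 2 ribosomal protein genes were higher, and 3 translation genes were higher and 2 lower. With quantile, upper quartile or median-ratio scaling the counts against the other ligands were between 9 and 12 of 79 and 7 or 8 of 40, again all higher.

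Among single genes, Cd59a differed by -0.82 from the other ligands (unadjusted p = 0.000123), Kank1 by -0.78 (0.00097), Pla2g12a by 0.73 (0.000623), Scd1 by -1.05 (0.00268) and Eif3c by 0.22 (0.00222), all on the side they had against vehicle in limma. Igf1 differed by -0.71 (unadjusted p = 0.0209, limma), and Irs1 by -0.48 (0.0445). F13a1 (0.40), Folr2 (0.38), Ap1b1 (0.22) and Mrc1 (0.16) were not at an unadjusted p-value under 0.05 in this comparison.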

How the data were processed

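RNA of 50 MG tumors was Poly-A selected and sequenced on the Ion Proton. The submitters' processing notes name TopHat2 2.0.10, Bowtie2, HTSeq 0.6.1, DESeq2 1.2.10 and build GRCm38. The authors deposited RPKM values for 37701 genes, that is, reads per gene divided by library size and gene length, without log transformation. Values step in whole reads at a common library size of 100 M, and reads were recovered for 15996 tested genes (95.6%), with at least 98.1% of the low values of each tumor whole. The authors' DESeq2 test needs counts and was not repeated.

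Genes with a mean of at least 0.5 RPKM over 50 tumors (16733) were tested on log2(RPKM + 0.5) with limma 3.58.1 in R 4.3.3. The fit held all 5 groups, each with its own mean, and an intensity trend, with Benjamini-Hochberg adjustment and a threshold of 0.05. The authors counted reads with the defaults of HTSeq, which take strand into account and leave out reads that fall on more than 1 gene. Gene types and coordinates were from GENCODE M21 (16551 genes found, of which 13520 protein-coding and 2055 pseudogenes). The limma test and the recovery of reads were each tested on simulated data.

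The members and the 58 gene lists were chosen with earlier results of these data known. Genes named were those past the adjusted threshold, the 8 protein-coding genes of smallest p-value in each direction with a mean of at least 5 RPKM, all tested IGF ligands, receptors, binding proteins and epithelial genes of the study, and up to 2 members of each other list per direction with an unadjusted p-value under 0.05, or else its lowest. Some genes picked by this rule are not reported here. Other members named as examples, Traf5 and the runs of genes in single tumors were chosen after their values were seen. A list's level in a tumor is the mean of its genes' log2(RPKM + 0.5), each relative to its mean over 50 tumors. The alternatives were other pseudocounts, filters and scalings, array weights, no trend, the compared groups alone, no pseudogenes, limma voom, covariates for library size and marker levels, and each tumor left out. Added after seeing the data were the epithelial covariate, leaving out small RNAs and leaving out 3 vehicle tumors. Python 3.11.15 with pandas 2.3.3, numpy 2.4.6 and matplotlib 3.10.9 made the tables and figures.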

Additional observations from a re-analysis of the deposited data

Results flagged for a closer look

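In 34 of 356 groups of 10 tumors checked, 1 tumor lay far from the other 9 by Dixon's test, and chance alone picks about 1 group in 20. The values below are RPKM unless stated.

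Untreated_197 was highest for Mcm4 (113.5, the others up to 27.95), Sdhc (139.8, up to 98.37) and Pappa2 (2.916, up to 1.063), and lowest for Ap1b1 (96.65, the others from 137.7). Untreated_174 was highest for Wnt4 (26.57), Muc1 (249) and Sdc1 (2376), and lowest for Zeb2 (7.556) and for the mean level of receptor adaptors (-0.42 in log2 units). Untreated_182 was highest for Elf5 (43.77) and the myelin protein gene Ncmap (16.04), and Untreated_195 for Pdia4 (125.4, others up to 75.29). Untreated_161 was highest for Igfbp2 (219.4, others up to 25.14) and lowest for the mean levels of pericyte genes (-1.68) and of dendritic cell and MHC class II genes (-2.69). Untreated_186 was highest for the level of B and plasma cell genes (2.65).

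IGF1_145 was highest of its group for Krt7 (90.89, others up to 7.252), Esrp2 (4.992), Serpinb5 (0.98), Erbb3 (0.893) and Pappa (1.793), and for the levels of IGF binding protein genes (1.14) and of the epithelial genes of the study (0.31). IGF1_132 was highest for Mir3473c (4.568, others up to 1.975) and Lad1 (8.085, others up to 1.491). IGF1_160 was lowest for Mcm4 (4.87, the others from 14.42), Mrc1 (15.25, from 54.62) and the level of pentose phosphate genes (-0.4), and highest for the level of glycolytic genes (0.81). IGF1_158 was highest for Ap2a2 (64.38) and the level of ATF4 and unfolded protein response genes (0.64) and lowest for Vim (2435). IGF1_135 was highest for Nop56 (255.6), and IGF1_143 had the largest library (51.88 M reads).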

How the results depend on the processing

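The count of 1 gene between IGF1 and vehicle became 0 with array weights, with the compared groups alone, with macrophage and T cell or epithelial levels as covariates, and without 3 vehicle tumors. It was also 0 with a mean of at least 5 RPKM required or small RNAs left out, which removes Mir3473c itself. Leaving out single tumors gave between 0 and 3 genes, with 0 without IGF1_132, 2 without IGF1_160 (F13a1 added) and 3 without Untreated_195 (F13a1 and Folr2 added). The adjusted p-value of Mir3473c in limma was between 0.00149 and 0.0668 over those fits, and 0.265 with array weights, 0.0565 with the compared groups alone, 0.123 with macrophage and T cell covariates, 0.097 with the epithelial covariate and 0.105 without 3 vehicle tumors. Its difference was between 1.14 and 3.03 over all settings.

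Genes at an unadjusted p-value under 0.05 numbered 2241 with all nonzero genes, 926 with a mean of at least 5 RPKM, 954 with the compared groups alone, 939 with macrophage and T cell covariates and 821 with the epithelial covariate, where 1479 was reported. Against the other ligands, all nonzero genes gave 2314, and library size as a covariate gave 1 gene past the adjusted threshold, Shank1.

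Of 122 genes followed across settings, 17 changed direction in at least 1 setting. With array weights the difference turned to 0.538 for Igf2, 0.0999 for Igfbp2, 0.154 for Igfbp3 and -0.309 for Igfbp6, and with library size as a covariate to 0.0218 for Igfbp3. With macrophage and T cell covariates it turned to 0.25 for Igfbp3, -0.0467 for Inpp5d, -0.0469 for Prc1 and 0.231 for Wnt4. With the epithelial covariate it turned to 0.251 for Cdh1, 0.568 for Grhl2, 0.523 for Elf5, 0.042 for Elf3, 0.109 for Serpinb5, 0.294 for Wnt4, 0.151 for Erbb3, 0.0844 for Phlda2 and -0.0123 for Prc1. Without 3 vehicle tumors it turned to 0.18 for Grhl2, 0.0102 for Wnt4 and -0.00324 for Igfbp4. Leaving out single tumors gave -1.27 to 0.279 for Igf2, -0.172 to 0.000592 for Insr, -0.682 to 0.0923 for Igfbp2, -0.16 to 0.153 for Igfbp3, -0.245 to 0.52 for Igfbp6 and -0.24 to 0.0398 for Pappa2. Single tumors also moved the size by over 1.5 times for Muc1 (-1.02), Vim (0.272) and Zeb2 (0.266) without Untreated_174, Dcn (0.705) and Timp3 (-0.545) without Untreated_161, and Cidea (-0.57) without Untreated_189. The cause was not tested. No paired analysis was possible because the groups share no mouse numbers.

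Limits are the small number of tumors, the selection of EMT-like tumors, the wide spread of vehicle tumors in epithelial content and, for Mir3473c, totals of 59 reads in IGF1 and 8 in vehicle tumors. The shorter latency with IGF1, and with it age and duration of injection, is a further limit.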

Other observations

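Neighboring genes were jointly high in single tumors. Protein-coding genes with a mean of at least 2 RPKM (11592) were ordered by position (GRCm38, GENCODE M21), and runs were kept where the running median of 11 genes was at least 1.5 log2 units above the median of all 50 tumors over at least 5 genes. This gave 20 runs in 12 of the 20 tumors.

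A stretch of chromosome 9 that holds Birc2 and Birc3, inhibitors of apoptosis, and Yap1, the effector of the Hippo pathway, was high in 3 tumors. It was chr9:7184520-8004596 in IGF1_145 (9 genes, median 3.55 log2 units above the 50-tumor median), chr9:7184520-8042823 in Untreated_161 (10 genes, 4.73) and chr9:5308828-9239101 in Untreated_186 (15 genes, 3.23). Yap1 was 2884, 8940 and 1048 RPKM in these tumors, 40.8, 126 and 14.8 times the 50-tumor median of 70.75 RPKM. Birc2 was 30.8, 60.8 and 12.1 times its median, and Birc3 11.8, 24.3 and 7.4 times.

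Untreated_194 had runs of 27 genes at chr4:94567514-103215164 (median 2.58), which includes the AP-1 gene Jun at 6.27 times its median, and of 26 genes at chr8:11453518-13975032 (2.55). It also had a run of 7 genes at chr9:66814994-67995638 (1.82). Untreated_197 had 17 genes at chr14:76110891-79635196 (1.82) and a run of 27 genes on chromosome 16 (2.03) that begins next to Mcm4, which was at 5.17 times its median in this tumor. Untreated_182 had 7 genes at chr6:6041218-8459470 (2.37) and 9 genes at chr6:17636234-22256404 (3.39). Other runs were mostly clusters of related genes, such as keratins on chromosome 15, mast cell proteases and granzymes on chromosome 14 and MHC class II genes on chromosome 17. DNA copy number was not measured in these files, and the cause of the runs was not tested.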
